A study of Bos taurus with 2 samples.

Results

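The genes described here encode subunits of ion channels, together with a few proteins that regulate them, and were taken by name from a bovine sperm expression array. A probe was included when its gene name began with CACN (calcium channels), KCN (potassium channels), SCN followed by a digit (sodium channels), TRPC, TRPM or TRPV (transient receptor potential channels), CLCN (chloride channels and transporters) or HCN followed by a digit (pacemaker channels), or was HVCN1 (the proton channel). This gave 152 gene names of 31913, read by 282 probes of 51282 and 300 spots of 61657. The rule uses names and no measured value. The study hybridised total RNA of spermatozoa from HF crossbred breeding bulls of high fertility to 1 array and RNA from HF crossbred breeding bulls of low fertility to another, each labelled with the dye Cy3 after priming with oligo-dT. How many animals stand behind an array, whether their RNA was pooled and whether they had any treatment is not given in the labels, which write of bulls. With 1 array per group there is no spread between samples, so each difference below describes these 2 arrays and carries no test.

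Ion channels let ions cross a membrane when voltage, a ligand, temperature or stretch opens them. A pore-forming subunit makes the conducting path, and auxiliary subunits tune its gating or its delivery to the membrane. In sperm, calcium entry drives hyperactivated swimming and the acrosome reaction, potassium efflux sets the membrane potential during capacitation, and proton efflux raises the pH inside the cell. The pore proteins that carry these currents are made largely while the germ cell still transcribes, and the RNA that mature sperm hold is mostly left over from spermatogenesis.

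Each probe is a DNA strand of 60 bases. The sequences below are some of those behind large differences and behind genes that a sperm biologist would look for first, as the array files give them, 5′ to 3′, with positions on build HGSC Btau_3.1. Both CACNA1I probes are shown because only the first was well above background, and the KCNK12 and SCN11A probes because they carried large differences. The HVCN1 probe read the proton channel. The first CACNB4 probe and the TRPC6 probe were well above background on the low-fertile array only, and capitals mark the 37 bases that the CACNB4 probes share without a gap.
CACNA1I, 5′ part of the transcript, chr5:118217716-118217775, plus strand: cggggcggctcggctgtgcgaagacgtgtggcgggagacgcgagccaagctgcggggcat
CACNA1I, 3′ part, chr5:118248809-118248868, plus strand: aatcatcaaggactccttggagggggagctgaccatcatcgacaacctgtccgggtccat
KCNK12, chr11:31054728-31054787, minus strand: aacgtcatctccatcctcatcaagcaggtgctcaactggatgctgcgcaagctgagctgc
SCN11A, chr22:12374600-12374659, minus strand: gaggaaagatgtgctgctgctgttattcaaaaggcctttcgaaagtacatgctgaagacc
HVCN1, chr17:57276209-57280566, minus strand: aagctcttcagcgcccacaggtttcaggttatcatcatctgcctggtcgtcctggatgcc
CACNB4, first probe, chr2:46476592-46476651, plus strand: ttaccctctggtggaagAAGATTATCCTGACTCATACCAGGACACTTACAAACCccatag
CACNB4, second probe, chr2:46476609-46476668, plus strand: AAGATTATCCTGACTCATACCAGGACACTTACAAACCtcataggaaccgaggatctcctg
TRPC6, chr15:5962151-5962210, plus strand: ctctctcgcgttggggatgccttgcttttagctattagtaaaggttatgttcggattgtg
The HVCN1 probe covers 4358 bases of the genome, more than its own 60, so it crosses at least 1 gap in the genome. The CACNB4 probes overlap over 43 positions and differ at 1 of them, C55T, counted from 1 at the 5′ end of the first probe, whose base is given first. Of all 282 channel probes, 221 cover exactly 60 genome bases, 51 cover more and 10 fewer.

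A probe is called measured here when all its spots were flagged well above background on both arrays. A gene is called read on an array when it had a probe with all its spots so flagged on that array. Of all probes, 27.6% were measured, and the flag was carried by 33.2% of the spots for high fertility and 32.9% for low. The lowest signal with the flag, in the scanner's linear units, was 22.6 for the high-fertile sample and 30.3 for the other, and no spot was saturated. Differences are log2 of the signal, high-fertile minus low-fertile, after each array was scaled to its 75th percentile over the measured probes (signals of 148.6 and 186.3). This adds 0.33 to the raw log2 difference, so equal signals on both arrays give 0.33. Repeat spots of a probe had an SD of 0.28 log2 units over 3038 measured probes of all genes, rising to 0.37 where the dimmer array lay under 2 times the lowest flagged signal. Of the scalings tried, external spike-in RNA moved the median of all genes by much the most, from -0.00 to -0.60 (0.10 with the percentile of all probes or the deposited series matrix), so that under it any difference between 0 and about 0.60 changes sign.

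Of the 152 channel genes, 66 (43.4%) had a measured probe, against 36.4% of all gene names. Another 7 were well above background on the high-fertile array only, 9 on the low-fertile array only, and CLCN3 was read on each array by a different probe. The remaining 69 had no probe well above background, as was so for 17480 of all 31913 gene names. That flag is strict. By the looser flag for a positive and significant signal, 128 of the 152 genes had a probe that passed on both arrays. The same held for 22613 of all 31913 gene names. A gene that is not well above background may thus still have signal. Channel genes had 1.86 probes each on average against 1.61 for all gene names, and probe by probe the shares lay close together, at 28.4% of channel probes and 27.6% of all probes. Among classes of more than 3 genes, chloride, TRPM, TRPV, tandem-pore potassium and voltage-gated calcium pore genes were measured most often, at 5 of 7, 4 of 6, 4 of 6, 9 of 14 and 5 of 8. Voltage-gated sodium channel genes were measured least often among these, at 2 of 12, followed by TRPC genes at 2 of 8, and by calcium channel auxiliary and calcium- or sodium-activated potassium genes at 4 of 14 and 2 of 7.

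**Figure D1:**
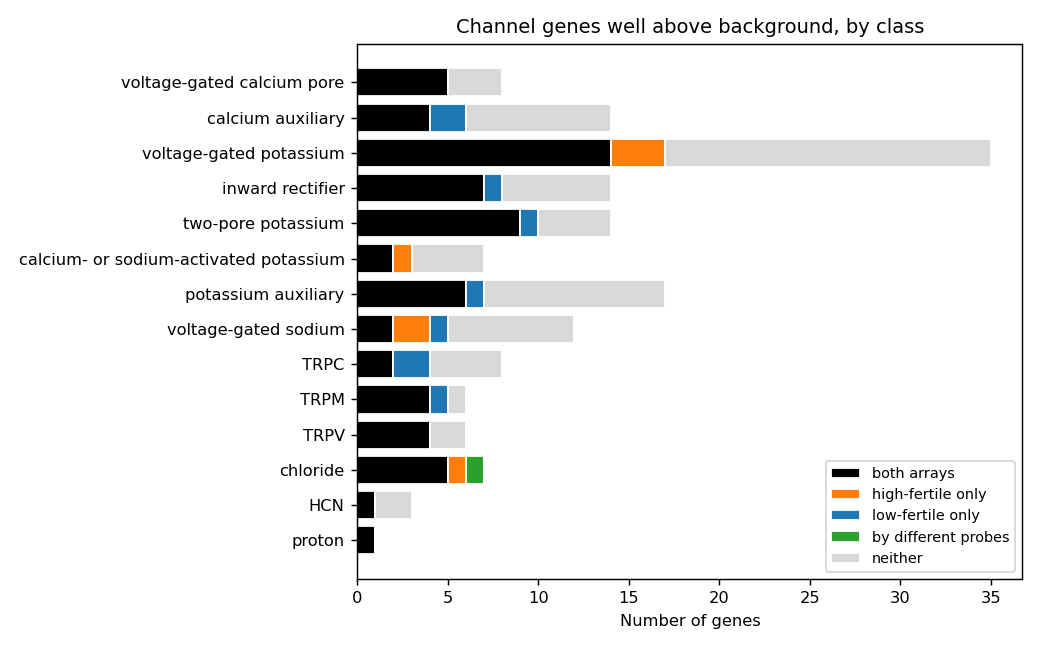
Number of channel genes in each class (horizontal axis, genes) by where a probe was well above background: both arrays, the high-fertile array only, the low-fertile array only, each array by a different probe, or neither. All 7 chloride genes fell outside the last state, while 18 of the 35 voltage-gated potassium genes and 7 of the 12 voltage-gated sodium genes were in it. So were 17480 of all 31913 gene names.

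As a set, the channel genes lay next to all genes. Their median log2 difference was -0.01, against -0.00 for all 11620 measured gene names, with quartiles of -0.20 and 0.21 and an SD of 0.42 between genes (0.46 for all genes). Signals on the high-fertile array were relatively higher for 32 genes and lower for 34, a split that became 44 and 22 when scaling used the percentile of all probes, dim ones included, and 5 and 61 with the spike-ins. CACNA1I and CLCN1 were at least 2-fold higher on the high-fertile array, 2 of 66 genes where 1.88% of all measured genes were so. KCNRG was at least 2-fold lower, 1 of 66 genes where the share of all measured genes was 2.44%. At 1.5-fold, 5 channel genes lay higher against 7.56% of all genes, and 2 lower against 8.77%. On counts this small, nothing particular to the channel genes is read from these shares.

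**Figure D2:**
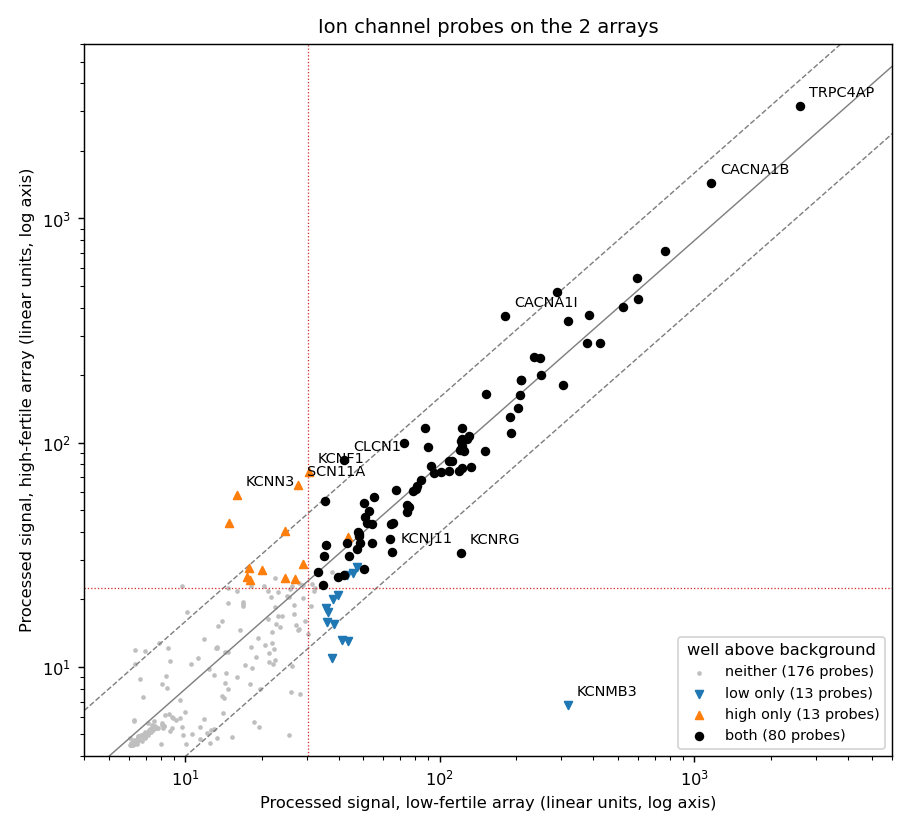
Processed signal of each of the 282 channel probes on the low-fertile (horizontal) and high-fertile array (vertical), both on log axes in linear scanner units. The solid line is equal scaled signal, the dashed lines are 2-fold, and the dotted red lines are the lowest flagged signals of 30.3 and 22.6; most of the 80 measured probes (black) lie between the dashed lines, while KCNRG lies below them and the probe of KCNMB3 far below.

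Voltage-gated calcium channel pores open on depolarisation and carry calcium into the cell. CACNA1I, a T-type pore that opens near the resting potential, had a signal of 368 for high and 181 for low fertility, the order in which each pair of signals is given from here on. The log2 difference was 1.35 (2.56-fold), with a scanner-derived error of 0.21, as the error model of the scanner software gives it for its 1 spot. Its other probe gave 18.5 and 22.4 and was not well above background on either, so the difference rests on the 5′ probe printed above, whose GC content is 73.3%. The other T-type pores were closer together on the arrays. CACNA1G gave 53.8 and 50.5 at 1 probe (0.42) and 39.1 and 48.3 at another (0.02), for a mean of 0.22 ± 0.28 (SD over 2 probes). CACNA1H gave 23.3 and 34.8 at 1 probe (-0.25) and 107 and 130 at another (0.05), for a mean of -0.10 ± 0.21 (SD over 2 probes).

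CACNA1B, the N-type pore, had signals of 1438 and 1166 at 1 probe. The difference was 0.63, which the 2 spots of that probe gave almost equally, at 0.62 and 0.63. Its other probe gave 23.2 and 28.7 (0.02) and was not well above background on either. CACNA1A, the P/Q-type pore, had 9 probes, the most of any channel gene, of which 3 were measured. These gave 0.74, -0.17 and -0.24, a mean of 0.11 ± 0.55 (SD over 3 probes), and 2 further probes were well above background on the low-fertile array only. In all, 4 of the 5 measured calcium pores lay above 0 with a median of 0.22, and under spike-in scaling 2 of 5 did, with a median of -0.38. CACNA1D, CACNA1E and CACNA1F had no probe well above background, and with the looser flag, which brings them in, 3 of 8 pores lay above 0 with a median of -0.05.

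Calcium channel auxiliary subunits bind the pore and set its gating and its number at the membrane. CACNG1, the gamma subunit known from skeletal muscle, had signals of 542 and 597 and a difference of 0.19. This became -0.005 with quantile normalization and -0.01 with a loess fit of the difference on mean signal. The other CACNG1 probe gave 4.84 and 6.06 and was not well above background on either. CACNB2, a cytoplasmic beta subunit, had 51.6 and 75.9 and a difference of -0.23, and CACNB1 had 163 and 206 with a difference of -0.01. The other probe of each, at 4.92 and 6.53 for CACNB2 and 6.31 and 9.965 for CACNB1, was not well above background on either. CACNB3 gave 35.6 and 48.7 (-0.13), while its second probe was well above background on the high-fertile array only, at 40.4 against 24.6. CACNB4 was read on the low-fertile array only by the first probe shown above, at 13.1 and 43.7, a signal at least 1.54-fold higher there. Its second probe, which shares 37 bases with the first, gave 10.1 and 26.1 and was not well above background on either. CACNA2D3 was also well above background on the low-fertile array only, at least 1.26-fold higher there. CACNA2D1, CACNA2D2, CACNA2D4 and CACNG2 to CACNG6 were well above background on neither.

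Voltage-gated potassium channels repolarise the membrane, and 14 of their 35 genes were measured, 7 above 0 and 7 below, with a median of -0.01. KCNC1, a fast delayed rectifier, had the highest value in the class at 0.39 ± 0.56 (SD over 3 probes). Its probes gave 55.1 and 35.4 (0.96), 57.0 and 55.2 (0.37), and 52.9 and 74.0 (-0.16). The first and second of these overlap in sequence and differed by 0.59. Both lay under 2 times the lowest flagged signal on the low-fertile array, where repeat spots had an SD of 0.37. That SD is for 1 spot, and a gap between 2 spots varies more, so the gap is not set apart from repeat noise. KCNS2, which forms no channel alone and modulates others, had the lowest value at -0.56, from signals of 27.3 and 50.5 near the lowest flagged signal. Its other probe, at 12.8 and 7.89 and not well above background, lay the other way, and the mean of both is 0.23. KCNA1 gave 240 and 248 (0.28) and KCNH1 gave 241 and 234 (0.37). The other KCNH1 probe, at 5.63 and 8.10, was not well above background on either. KCNA5 was among the 3 genes of the class well above background on the high-fertile array only, at least 1.01-fold higher there. KCNF1 showed how far probes could part: its measured probe gave 34.9 and 35.8 (0.29), and its other probe, at 73.7 and 30.5, was well above background on the high-fertile array only and at least 3.03-fold higher there.

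Inward rectifiers pass potassium more easily inwards and hold the resting potential; KCNJ11 and KCNJ8 form the pores of ATP-sensitive channels. KCNJ11 had signals of 32.4 and 64.8 and a difference of -0.67 (scanner-derived error 0.32), the lowest of the class. KCNJ8 gave 111 and 190, a difference of -0.45. KCNJ12, a strong inward rectifier, had 117 and 122 and the highest difference of the class, 0.26. The class median was -0.04 with 2 of 7 measured genes above 0, counts that became 4 of 7 with the percentile of all probes. KCNJ9, a subunit gated by G proteins, shows the noise within a probe, as its 2 spots gave 0.49 and -0.29.

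Tandem-pore channels carry background potassium current, and 9 of their 14 genes were measured. KCNK12, a member that gives little or no current by itself, had the highest difference of the class, 0.92 ± 0.18 (SD over 2 probes). One probe gave 472 and 288 with 2 spots at 1.02 and 1.05, and the probe printed above gave 99.8 and 72.4 (0.79). It was the channel gene with the largest absolute mean difference among those with at least 2 measured probes of the same sign. The mean lay just inside the 2-fold threshold of 1 and just outside it, at 1.02, with the percentile of all probes, and spike-in scaling gave 0.32. KCNK1 had signals of 37.2 and 63.6 and the lowest difference, -0.45, next to KCNK2, a channel gated by stretch and temperature, with 181 and 304 and -0.42. KCNK5, a channel opened by alkaline pH outside the cell and studied in sperm volume regulation, had 102 and 121 and a difference of 0.07. KCNK13 gave 403 and 525 (-0.06).

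Among channels gated by calcium or sodium, KCNMA1, the pore of the BK channel, had signals of 164 and 152 and a difference of 0.44 at 1 probe. Its other 2 probes had only the looser flag and lay at -0.56 and -0.69, and the mean of all 3 is -0.27. KCNU1, the pore of the pH-sensitive sperm potassium channel SLO3, had 1 probe, at 5.66 and 18.5, well above background on neither array. With the looser flag it counted as measured, at -1.38. KCNN3, a small-conductance channel, gave 43.9 and 65.3 (-0.25) at its measured probe. Its second probe was well above background on the high-fertile array only, with 58.2 and 15.9, at least 2.41-fold higher there. A further probe, named as KCNN3 in RefSeq through its accession but not by its gene name in the files, gave 525 and 499 (0.40) and was not counted among the members. The 3 probes of this gene thus gave values on both sides of 0, and the mean of the 2 member probes without the strict flag is 0.98. KCNN4 was well above background on the high-fertile array only, at least 1.02-fold higher there.

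**Figure D3:**
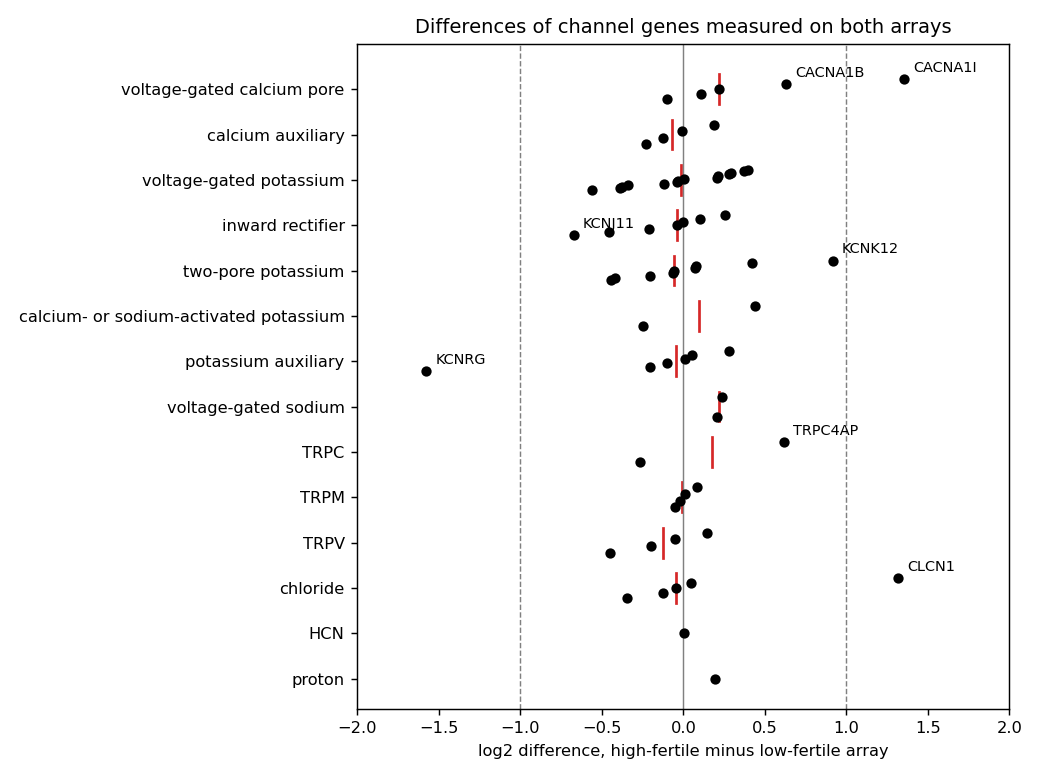
Log2 difference of each of the 66 measured channel genes (horizontal axis, high-fertile minus low-fertile), by class, with 1 point per gene as the mean over its measured probes and a red line at the class median. Dashed lines mark 2-fold; 3 genes lie outside them, CACNA1I and CLCN1 to the right and KCNRG to the left.

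Potassium channel auxiliary genes include beta subunits, calcium-binding partners and regulators. KCNRG, a soluble protein that binds voltage-gated potassium channel subunits and hinders their assembly, had signals of 32.2 and 121. The difference was -1.58 (2.98-fold lower), with a scanner-derived error of 0.31, on its only probe and 1 spot, and the high-fertile signal was 1.43 times the lowest flagged one. KCNIP2, a calcium-binding partner of A-type channels, had 371 and 384 and the highest difference of the class, 0.28. The other KCNIP2 probe, at 11.7 and 14.8, was not well above background on either. KCNMB1, the BK beta subunit of smooth muscle, gave 48.9 and 74.6 (-0.28) at 1 probe and 437 and 601 (-0.13) at the other, a mean of -0.21 ± 0.10 (SD over 2 probes). KCNAB1, a cytoplasmic beta subunit, gave 104 and 128 (0.03) and 103 and 122 (0.08) at 2 overlapping probes. KCNE1 to KCNE4, small membrane partners of KCNQ1 and its relatives, had no probe well above background.

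KCNMB3, a BK beta subunit known from testis among other tissues, had the widest gap of signals, with 6.77 and 319. It was at least 11.2-fold higher on the low-fertile array. Of the 9 channel genes read on that array only, this was the 1 with a bound of at least 2-fold, where 16.7% of such genes were so among all genes. Of the 8 spots around it, 5 were also at least 2-fold lower on the high-fertile array, and it was the 1 channel spot of 300 (0.333%) that lay in such a patch, against 0.449% of all spots. With spots in patches left out, KCNMB3 was no longer read on either array. Its second probe, which overlaps the first on the chromosome, gave 8.99 and 15.99 and was not well above background on either.

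Sodium channel alpha subunits start action potentials in excitable cells, and the SCNB genes encode their beta subunits. SCN2B, a beta subunit, had signals of 716 and 764 and a difference of 0.23, a value that turns negative with the spike-ins. With quantile normalization it was 0.02 and with the loess fit 0.01. SCN11A, the pore known from pain-sensing neurons, gave 64.6 and 27.8 and was well above background on the high-fertile array only. It was at least 2.67-fold higher there, the 1 of 7 channel genes read on that array only with a bound of at least 2-fold, where 7.25% of such genes were so among all genes. SCN8A gave 13.2 and 41.1 at 1 of 4 probes and was well above background on the low-fertile array only, at least 1.45-fold higher there. No probe was well above background for SCN1A, SCN2A, SCN3A, SCN3B, SCN4B, SCN7A and SCN9A.

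Transient receptor potential channels are cation channels that sense lipids, temperature, osmolarity or stores of calcium. In the TRPC class, TRPC4 had signals of 35.8 and 54.1 and a difference of -0.27. TRPC4AP, a protein that binds TRPC4 and forms no channel, fell under the naming rule with 3180 and 2605. Its difference was 0.61 over 2 spots of the 1 measured probe of 4. The value was 0.32 with quantile normalization, 0.33 with the loess fit, 0.30 over all its probes and 0.02 with the spike-ins. TRPC2, needed for pheromone sensing in rodents, was well above background on the low-fertile array only at 28.0 and 47.2, at least 1.35-fold higher there. TRPC6 was likewise read on the low-fertile array only, at 11.0 and 37.8 and at least 1.33-fold higher. TRPC1, TRPC5 and TRPC7 were among the genes read on neither.

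The 4 measured TRPM genes lay within 0.1 of 0. TRPM7, a magnesium-permeable channel with a kinase domain, had 43.8 and 51.8 and a difference of 0.09 (-0.55 with its dimmer probes averaged in), and TRPM6, its close relative, gave a mean of -0.05 ± 0.18 (SD over 2 probes). TRPM2 was well above background on the low-fertile array only, at least 1.38-fold higher there. TRPM8, the cold receptor, was not analysed here. In the TRPV class, TRPV4, which responds to warmth and swelling and has been studied in sperm hyperactivation, gave 348 and 320 (0.45) at 1 probe and 33.6 and 47.2 (-0.16) at the other, a mean of 0.14 ± 0.43 (SD over 2 probes). TRPV1, the capsaicin receptor, gave 49.5 and 52.8 (0.23) and 25.2 and 39.7 (-0.33), a mean of -0.05 ± 0.40 (SD over 2 probes). TRPV2 gave 279 and 377 (-0.10) and 277 and 425 (-0.29) at 2 overlapping probes. TRPV6, an epithelial calcium channel, had 77.6 and 133 and the lowest difference of the class, -0.45.

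CLCN genes encode chloride channels of the plasma membrane (CLCN1, CLCN2) and chloride-proton exchangers of endosomes and lysosomes (CLCN3 to CLCN7). CLCN1, the skeletal muscle channel, had signals of 83.4 and 42.0, a difference of 1.32 (2.49-fold) with a scanner-derived error of 0.33. This came from 1 of 4 probes. Another probe lay the other way, well above background on the low-fertile array only, with 20.1 and 38.0, and the remaining 2 were not well above background on either. CLCN2 had 74.5 and 119 and the lowest difference of the class, -0.35, and CLCN4, CLCN5 and CLCN7 lay between -0.12 and 0.05. CLCN3, studied in sperm volume regulation, was read on the high-fertile array by 1 probe (24.9 and 24.7) and on the low-fertile array by another (15.8 and 36.0).

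HCN3, a pacemaker channel gene, had 200 and 250 and a difference of 0.00, while HCN2 was not well above background and HCN4 was not analysed here. HVCN1, the voltage-gated proton channel that alkalinises the cytoplasm of sperm, had signals of 46.5 and 51.0 at its measured probe. The difference was 0.19 with a scanner-derived error of 0.34, and it was -0.41 with the spike-ins and -0.37 averaged over both its probes. Its second probe gave 5.08, a surrogate value that the scanner software sets for the dimmest spots, and 12.1, and was not well above background on either.

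Agreement between probes of a gene was limited. Of the 66 measured genes, 54 rested on 1 measured probe and 12 on more. The 12 gave 13 pairs of probes that share no run of 16 bases, from 10 genes, of which 4 pairs had the same sign and 7 lay within 0.5 of each other; the widest gap was 1.12, in KCNC1. The SD between such probes was 0.41 for channel genes and 0.44 for 3147 pairs over all genes, above the 0.28 of repeat spots. The 3 pairs of overlapping channel probes had the same sign, with an SD of 0.25. None of CACNA1I, CLCN1 and KCNRG had a second measured probe.

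**Figure D4:**
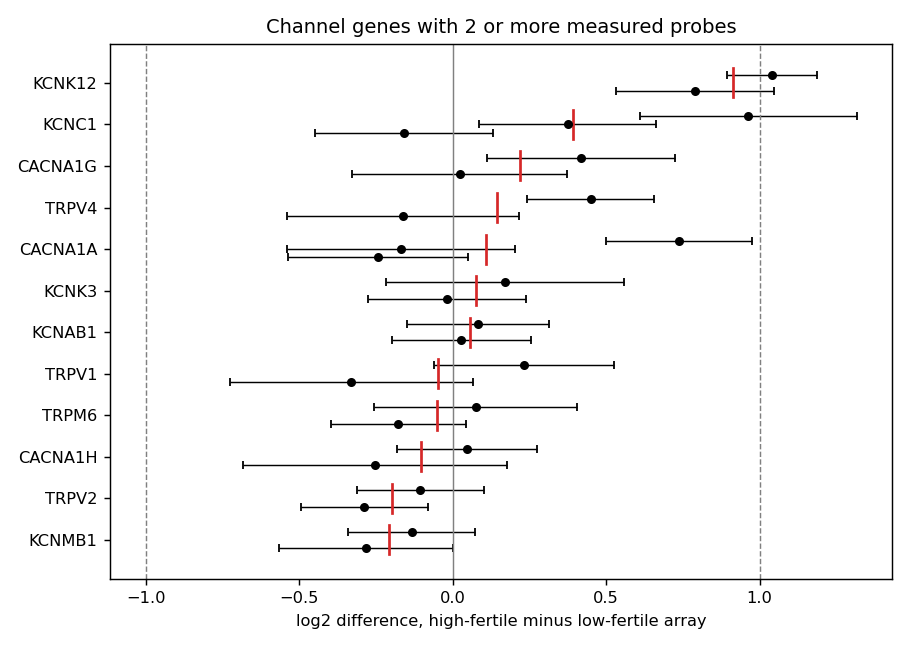
Log2 difference of each measured probe (points) of the 12 channel genes with at least 2, with the scanner-derived error as bars and a red line at the gene's mean; dashed lines mark 2-fold. Both KCNK12 probes lie near 1, at 0.79 and 1.04, while probes of KCNC1, CACNA1A, TRPV4 and TRPV1 fall on both sides of 0.

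Base composition and brightness went with what could be read. The share of channel probes measured rose from 12.96% of 54 probes with under 40% GC to 20.9% of 139 with 40 to 50%, 47.1% of 70 with 50 to 60% and 57.9% of 19 with at least 60%. The same shares over all probes were 13.3%, 25.1%, 47.9% and 59.3%. Measured channel probes had a median GC content of 51.7%, against 45.0% for all measured probes and 45.0% for channel probes not well above background on either. GC content correlated with the difference at r = 0.26 over the 80 measured channel probes and r = 0.22 over all 14154, where probes share the arrays and their scaling. Of the 80 measured channel probes, 50 (62.5%) had less than 4 times the lowest flagged signal on the dimmer array, close to the 65.8% of all measured probes. With that signal required on both arrays, 28 channel genes were left, of which CACNA1I and KCNK12 were at least 2-fold higher and none lower. Of the 4257 gene names left among all genes, 2.94% were at least 2-fold higher and 1.08% lower.

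The differences that crossed 2-fold also depended on background and scaling. With normexp background correction the value of CACNA1I was 1.05, that of CLCN1 0.67 and that of KCNRG -0.73. With the spike-ins, CACNA1I was at 0.75 and CLCN1 at 0.72, neither 2-fold, and KCNRG was at -2.18. Under that scaling 7 of 66 channel genes were at least 2-fold lower in place of 1, where 15.4% of all measured genes were so. Averaged over all probes whatever their brightness, CACNA1I was at 0.70 and CLCN1 at 0.41.

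**Figure D5:**
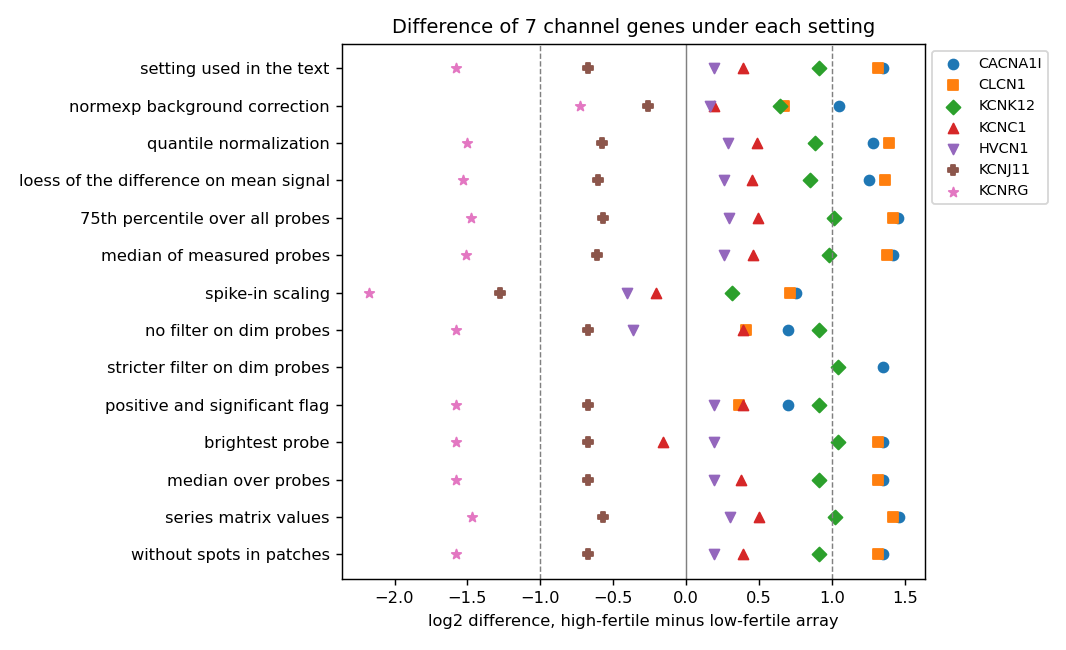
Log2 difference (horizontal axis, high-fertile minus low-fertile) of 7 channel genes under the setting used in the text and each alternative (vertical axis); dashed lines mark 2-fold. KCNRG is below 0 and CACNA1I, CLCN1 and KCNK12 are above 0 wherever they have a value, while HVCN1 and KCNC1 are below 0 under spike-in scaling, HVCN1 also with no filter and KCNC1 also at its brightest probe.

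The sperm calcium channel CatSper, the pumps, the exchangers and the store channels work beside the genes above, and 78 names of such genes were listed. Of these, 63 were on the array and 27 (42.9%) were measured, 12 above 0 and 15 below, with a median of -0.02 and none at least 2-fold apart. CATSPER1, a CatSper pore subunit, had a difference of 0.05, and CATSPER2, CATSPER3 and CATSPER4 had no probe well above background. ATP1A4, the sodium pump subunit of sperm, was at 0.14, and ATP2B4, the plasma membrane calcium pump of the sperm tail, at -0.33. CNGB1, a subunit of cyclic nucleotide-gated channels, had the highest value, 0.48 ± 0.33 (SD over 3 probes), and VDAC3, a mitochondrial outer membrane channel, the lowest, -0.51. With the spike-ins the median of this list was -0.62.

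The array values also bear on the labelled cell type. Of 12 spermatid and sperm markers, 7 were measured, among them PRM1 (-1.10 ± 0.28, SD over 2 probes), TNP2 (1.22) and ODF1 (0.24), while PRM2, AKAP4, CRISP2, SPATA18 and TSSK6 had no probe well above background. Markers of other cells were read too: 6 of 10 leukocyte genes (PTPRC at -0.51, ITGB2 at 0.61), 4 of 7 epithelial genes with EPCAM and CDH1 not well above background on either, all 6 testis somatic genes analysed, 1 of 5 erythroid genes and 8 of 10 neuron and muscle genes. Summed over measured genes in multiples of each array's scaling signal, and to be compared between arrays only, the leukocyte markers came to 54.2 (high fertility) and 72.6 (low). LYZ (30.9 and 37.5) and PTPRC (15.5 and 27.3) made up most of that sum, and the median difference of the 6 measured leukocyte markers was 0.01, with 3 above 0 and 3 below. LYZ is among those above 0, at 0.34 ± 0.88 (SD over 2 probes), although its part of the sum was lower for high fertility. The other sums were, for the neuron and muscle markers, 8.75 and 7.40, for the testis somatic markers 6.96 and 7.09, for the epithelial markers 3.68 and 3.05 and for the sperm markers 4.25 and 4.13. RBFOX3, a neuronal marker, was at 0.87 ± 0.26 (SD over 2 probes) and made up 4.27 and 2.44 of the neuron and muscle sums. SYP and TUBB3 were at -0.36 each and SNAP25 at 0.14, while NEFL was not well above background. The median of the 8 measured markers of that list was -0.03, with 4 above 0 and 4 below. The part of all these cells in the channel values was not tested. In such bulk RNA fewer cells of a type cannot be told apart from less RNA per cell.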

How the data were processed

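The values are linear spot intensities from the authors' deposited scanner tables. Agilent Feature Extraction 11.5.1.1 wrote these from 1-colour scans, with spatial and multiplicative detrending and with surrogate values for the dimmest spots, per the file headers. The headers place the probes on HGSC Btau_3.1. The deposited series matrix holds log2 values of the same arrays and was used as an alternative only; set against the scanner values they equal log2 signals plus a constant per array.

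Control and outlier spots were left out, log2 processed signals were averaged per probe, and each array's 75th percentile over probes well above background on both arrays was subtracted. A gene's difference is the mean over its measured probes, with a threshold of 1 on the log2 scale (2-fold). A probe read on 1 array only was set against the higher of the other array's lowest flagged signal and its own value there, written "at least N-fold". A scanner-derived error combines Feature Extraction's signal errors of both arrays. Of the channel probes, 213 were matched to RefSeq (ARS-UCD2.0, used for names only) by accession and 69 by symbol. The groups are those of the fertility label.

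The channel genes and all lists were chosen with earlier results of these data known. Genes were named by rule: those at least 2-fold apart or bounded so, the highest and lowest measured member of each class, up to 6 with at least 2 measured probes of 1 sign and the largest mean difference (5 qualified), and a fixed list of genes of interest; every other channel gene named was chosen after its values were seen. Alternatives covered background correction (limma 3.58.1), normalization, filters, probe summaries, patches and the threshold. The difference and threshold steps were tested on simulated data. Python 3.11.15 and R 4.3.3 were used. The number of arrays, 1 per group, limits the precision. Some channel genes and 1 probe sequence are counted but not reported here.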

Additional observations from a re-analysis of the deposited data

How the results depend on the processing

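No paired analysis was possible because each group has 1 array. In place of the 66 measured channel genes, 152 had a value with no filter on dim probes, 128 with the positive-and-significant flag and 28 with the stricter filter. The 2 genes at least 2-fold higher became 1 with normexp, 1 with no filter and 0 with the spike-ins, and 5 at a threshold of 1.5-fold. The 1 gene at least 2-fold lower became 0 with normexp and with the stricter filter, 4 with no filter, 5 with the positive-and-significant flag, 7 with the spike-ins and 2 at 1.5-fold. Over all genes, the share higher was 0.62% with normexp, 2.46% with no filter and 0.28% with the spike-ins. The share lower was 0.41% with normexp and 1.08% with the stricter filter. It was 5.49% with no filter, 5.96% with the positive-and-significant flag and 15.4% with the spike-ins. The median of the channel genes, -0.01, moved to 0.10 with the percentile of all probes, 0.10 with the series matrix, 0.12 with the stricter filter, -0.11 with no filter and -0.60 with the spike-ins. Its distance from the median of all genes stayed between -0.02 and 0.05 in all 14 settings. The median of the other ion transport list was 0.082 with the percentile of all probes, 0.085 with the series matrix and -0.62 with the spike-ins. The gene bounded at 2-fold on the high-fertile array, SCN11A, was lost (0 genes) with normexp, the stricter filter, the positive-and-significant flag and the spike-ins. The gene so bounded on the low-fertile array, KCNMB3, was lost (0) without spots in patches, and the spike-ins gave 8. The share of higher among all genes at least 2-fold apart was 43.4%, and 60% with normexp, 59.2% with the percentile of all probes, 59.6% with the series matrix, 73.1% with the stricter filter, 31.0% with no filter, 31.6% with the positive-and-significant flag and 1.81% with the spike-ins. Spike-in scaling, the percentile of all probes and the series matrix each add 1 constant to every log2 difference, so the changes under them follow by construction. So do those that fewer or more probes or a lower threshold make. Why the constants differ and the cause of the other changes were not tested. Of the values of single named genes, 324 moved by no more than the spread set for them, 63 by more, and no difference of at least 2-fold changed sign. Most of these genes had 1 measured probe and so no spread between probes. For them the counts do not measure stability against their own variation. Dim signals limit the precision: 28 of the 80 measured channel probes had under 2 times the lowest flagged signal.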
